A study of Mus musculus with 12 samples.

Results

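The genes described here are the ligand insulin-like growth factor 1 (Igf1), the receptors Igf1r and Igf2r and the IGF binding protein genes Igfbp2 to Igfbp7, 9 of the 49585 genes in the count tables. They were chosen by name and matched through their Ensembl identifiers, and all 9 were among the 18648 genes with enough counts to be tested. RNA came from wild-type male C57BL/6 mice, 8-10 weeks old and at steady state, and 4 populations were sorted, each represented by 3 libraries of 2000 cells. The study compared its Itga8+ mesenchymal stem cells (MSCs) with neighbouring and established stromal populations. Itga8+ MSCs were Itga8+Alcam+Sca-1- and Itga8-Alcam+ bone-lining cells (BLCs), which the labels call osteoblasts, were Itga8-Alcam+Sca-1-. Sca-1+ MSCs were Alcam-Sca-1+, and CD51+CD140a+ MSCs were sorted on those antigens alone, and every gate also left out CD45+, Ter119+ and CD31+ cells. The first 3 populations came from bone fragments digested with collagenase, whereas CD51+CD140a+ MSCs came from flushed marrow digested with Accumax, so a difference between CD51+CD140a+ MSCs and the rest cannot be told apart from a difference of source and digest. The labels do not say whether the libraries of a population came from separate mice, so the p-values measure the spread between these libraries only.

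IGF1 is a growth factor made in the liver under growth hormone and also locally in bone, where it acts on osteoblast lineage cells through the receptor tyrosine kinase IGF1R. IGF2R, the mannose 6-phosphate receptor, has no kinase and mainly takes up IGF2 and sorts lysosomal enzymes. The binding proteins IGFBP2 to IGFBP6 bind IGFs with high affinity in blood and matrix and can hold them away from the receptor or store them, whereas IGFBP7 binds IGFs weakly, and extracellular proteases such as PAPP-A release the ligand by cleaving the binding protein.

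The promoters of Igfbp3, Igfbp4, Igfbp5 and Igfbp6 are shown because the first 3 of these genes were highest in CD51+CD140a+ MSCs and Igfbp6 was lowest there. Each line holds the 250 bases before the start of transcription, 5′ to 3′ on the strand of the gene, from RefSeq on GRCm38.p6. Capitals mark each exact match to the TATA box letters TATAAA and to the E-box letters CANNTG, searched on both strands at any position. Variants of TATAAA were not searched and stay in lower case, such as tatatat in Igfbp3 and tatttaaa in Igfbp5. The capitals therefore do not show which promoters have or lack a TATA box.
Igfbp3: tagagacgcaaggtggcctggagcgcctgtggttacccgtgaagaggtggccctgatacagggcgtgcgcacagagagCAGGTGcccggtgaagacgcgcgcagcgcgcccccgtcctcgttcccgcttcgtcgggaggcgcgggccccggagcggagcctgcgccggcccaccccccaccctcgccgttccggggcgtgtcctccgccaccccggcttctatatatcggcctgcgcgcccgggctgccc
Igfbp4: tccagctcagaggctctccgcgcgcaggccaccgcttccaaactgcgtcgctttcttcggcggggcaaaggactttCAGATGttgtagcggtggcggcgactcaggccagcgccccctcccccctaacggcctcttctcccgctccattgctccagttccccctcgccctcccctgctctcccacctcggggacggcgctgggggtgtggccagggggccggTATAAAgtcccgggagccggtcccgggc
Igfbp5: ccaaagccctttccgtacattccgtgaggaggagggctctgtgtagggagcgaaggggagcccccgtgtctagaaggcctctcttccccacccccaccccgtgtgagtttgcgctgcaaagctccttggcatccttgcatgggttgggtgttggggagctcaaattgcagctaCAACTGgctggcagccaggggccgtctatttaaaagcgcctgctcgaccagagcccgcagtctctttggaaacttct
Igfbp6: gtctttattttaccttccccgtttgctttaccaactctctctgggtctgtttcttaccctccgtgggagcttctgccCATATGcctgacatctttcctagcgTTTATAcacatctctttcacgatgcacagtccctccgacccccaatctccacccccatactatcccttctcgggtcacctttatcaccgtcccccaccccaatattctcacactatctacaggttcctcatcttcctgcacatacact
Igfbp3 lies at chr11:7213924-7214173 on the minus strand. Igfbp4 lies at chr11:99040994-99041243 on the plus strand. Igfbp5 lies at chr1:72874866-72875115 on the minus strand. Igfbp6 lies at chr15:102143936-102144185 on the plus strand. Positions, GC content and matches refer to the RefSeq starts. In GENCODE M21, used here for exon lengths, Igfbp6 starts at 102144362, beyond its window, and Igfbp5 at 72874884, within its window. Igfbp4 held TATAAA at position -28 from the start, and Igfbp6 held it on the opposite strand at position -148. The other 2 promoters did not hold these letters in this window. Of 32851 mouse promoters of the same length, 12.37% held TATAAA and 66.22% held CANNTG, and each of the 4 sequences held a single CANNTG. The GC content was 73.2% for Igfbp3, 69.2% for Igfbp4, 58.8% for Igfbp5 and 49.6% for Igfbp6, beside a median of 52.4% over all promoters. None of the 4 held the GC box GGGCGG, which 32.74% of promoters held, or the EBF motif CCCNNGGG, which 11.82% held. Igfbp3 alone of the 4 held the Runx motif TGTGGT, at position -223, which 14.05% of promoters held. These matches describe letters and were not tested as binding sites.

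On the chromosomes, Igfbp2 and Igfbp5 are neighbours on chromosome 1 of GRCm38, at 72824503-72852474 on the plus strand and 72857932-72874884 on the minus strand, with their 3′ ends 5457 bases apart and no gene between. Igfbp3 lies at 7206086-7213923 on chromosome 11 beside Igfbp1, 3539 bases away, and Igfbp1, a binding protein made mainly in liver, was listed at 0 counts in all 12 libraries. Of the exon bases of Igfbp7, 7.031% lie opposite Polr2b, and the sources do not say whether strand was used in counting. Between 97.01% and 100% of the 50-base words in each of the 9 genes occurred in no other gene.

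The total gene count of a library ranged from 17580677 to 31332475, and the 3 deepest libraries were those of CD51+CD140a+ MSCs. A level of 3 counts, taken as the floor, corresponded to 0.0820 to 0.180 CPM (counts for every 1000000 reads of the library, scaled by TMM), which covers counting error only because amplified copies count as separate reads. The mean level of Itga8 was 103 ± 85.7 CPM in Itga8+ MSCs and 1.74 ± 2.11 CPM in Itga8-Alcam+ BLCs (SD, n = 3 each), Ly6a, which encodes Sca-1, had 636 ± 24.0 CPM in Sca-1+ MSCs and at most 27.5 ± 8.77 CPM elsewhere, and Itga8 had 64.4 ± 16.2 CPM in CD51+CD140a+ MSCs, for which it was no gate. Pdgfra, which encodes CD140a, was at 767 ± 93.4 CPM in CD51+CD140a+ MSCs and at 874 ± 143 CPM in Sca-1+ MSCs. Alcam transcript was low in both populations gated on its protein, at 3.01 ± 1.89 CPM in Itga8+ MSCs and 4.92 ± 1.00 CPM in Itga8-Alcam+ BLCs. Libraries of Itga8+ MSCs and Itga8-Alcam+ BLCs differed among themselves more than those of the other populations. In Itga8+ MSCs the sum of 6 cartilage markers ranged from 10696 to 116138 CPM with the highest value in replicate 3, and the sum of 8 other myeloid and lymphoid markers from 2296 to 11829 CPM with the highest in replicate 2. In Itga8-Alcam+ BLCs the cartilage sum ranged from 9947 to 72766 CPM with the highest in replicate 2.

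Igf1, the ligand, was highest in Sca-1+ MSCs and lowest in Itga8-Alcam+ BLCs. Its level in replicates 1 to 3 was 523, 497 and 686 CPM in Sca-1+ MSCs and 318, 287 and 311 CPM in CD51+CD140a+ MSCs. Itga8+ MSCs had 83.1, 145 and 178 CPM, and Itga8-Alcam+ BLCs 28.5, 50.1 and 21.4 CPM. The means were 569 ± 103, 305 ± 16.3, 136 ± 48.3 and 33.4 ± 15.0 CPM in that order (SD, n = 3 each), and no library of a population overlapped with a library of the next. Fold changes and their adjusted p-values come from edgeR's quasi-likelihood test with Benjamini-Hochberg adjustment over all 18648 genes (FDR), and a gene was called different when its FDR was below 0.1 and its fold change exceeded 2. Igf1 was called in 5 of the 6 comparisons of populations. It was 4.06-fold higher in Itga8+ MSCs than in Itga8-Alcam+ BLCs (log2 2.02 ± 0.368 SE, FDR = 0.0112, or 0.152 with only these populations fitted) and 17.0-fold higher in Sca-1+ MSCs than in Itga8-Alcam+ BLCs (FDR = 5.92e-05). The step between the 2 highest populations, 1.86-fold (FDR = 0.115), was not called. Itga8+ MSCs were 4.20-fold below Sca-1+ MSCs (FDR = 0.00313) and 2.25-fold below CD51+CD140a+ MSCs (FDR = 0.0293), and without Itga8+ MSCs replicate 1 this log2 fold change was -0.92, under the fold limit. In bulk samples such as these, fewer cells making a transcript and less transcript per cell cannot be told apart.

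**Figure D1:**
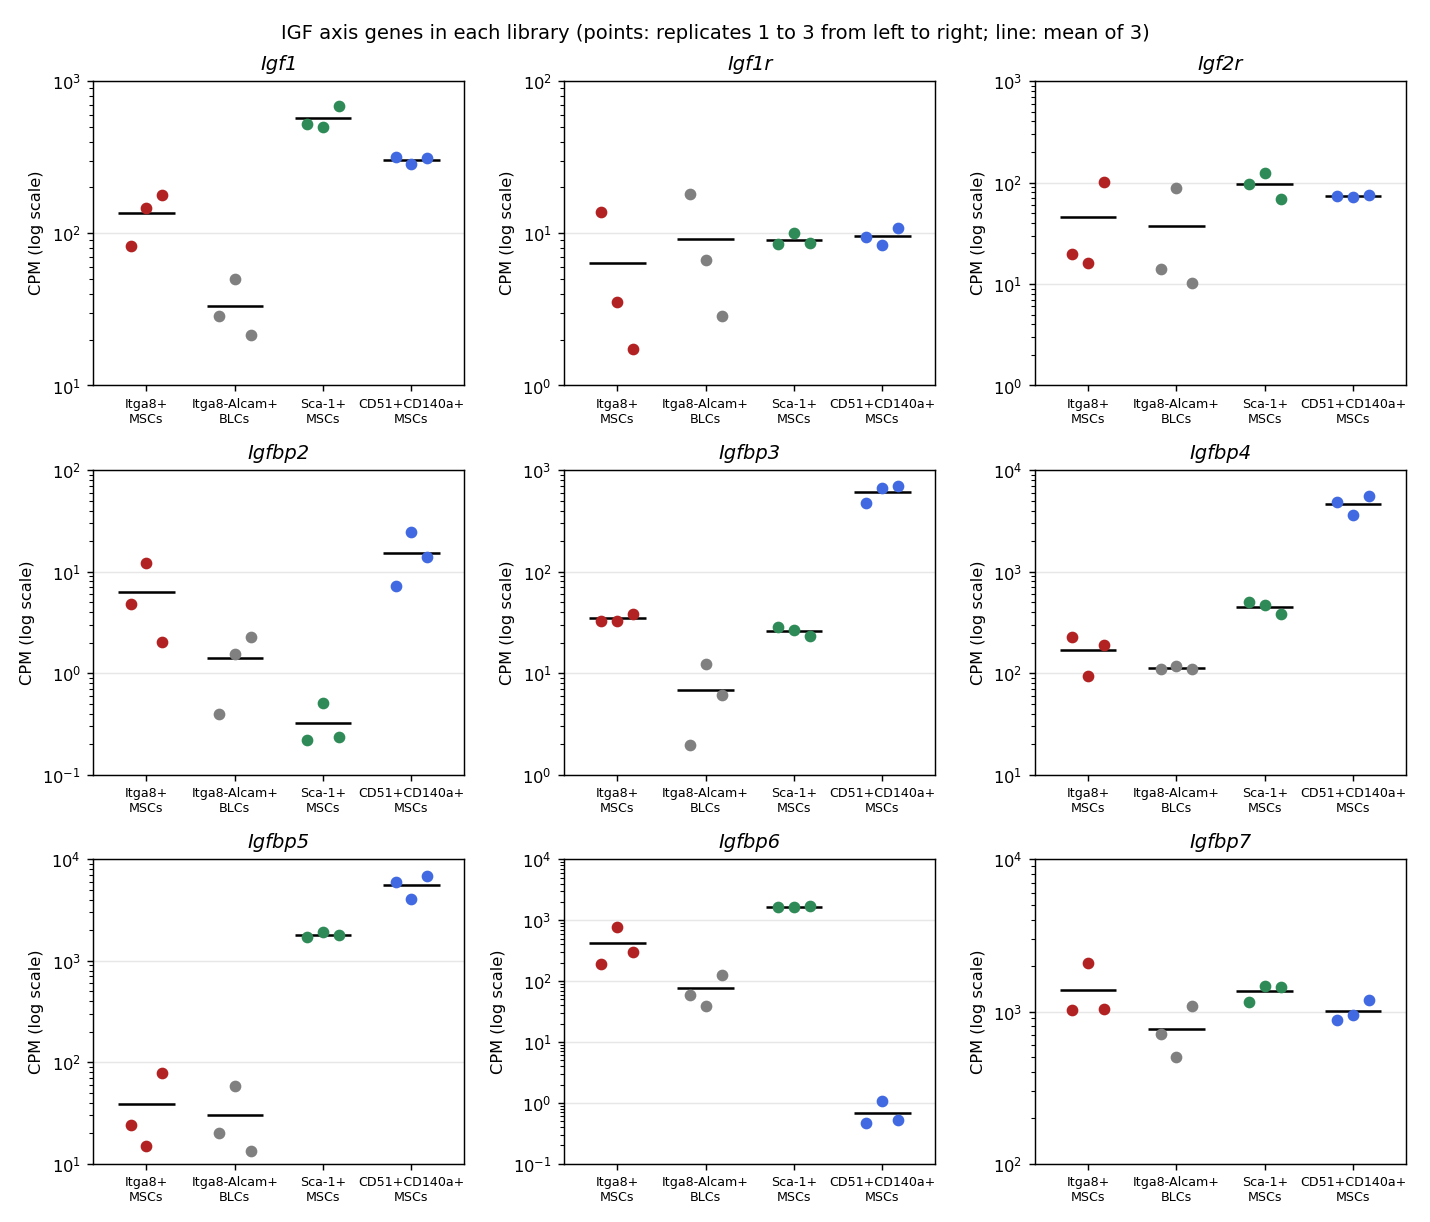
Level of each of the 9 genes in the 12 libraries, with CPM on a log scale on the vertical axis, 1 point per library, replicates 1 to 3 from left to right and a line at the mean of 3. Igfbp6 has a mean of 1672 CPM in Sca-1+ MSCs and 0.690 CPM in CD51+CD140a+ MSCs, while Igfbp3, Igfbp4 and Igfbp5 are highest in CD51+CD140a+ MSCs.

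No difference in either receptor was called. Igf1r, the signalling receptor, had 9.48, 8.34 and 10.8 CPM in CD51+CD140a+ MSCs and 8.52, 10.0 and 8.57 CPM in Sca-1+ MSCs. It had 13.8, 3.53 and 1.73 CPM in Itga8+ MSCs and 18, 6.72 and 2.88 CPM in Itga8-Alcam+ BLCs. The last 2 populations spread widely, with the highest value in replicate 1 of both, and all 4 populations overlapped. The largest fold change, of CD51+CD140a+ over Itga8+ MSCs, was 1.5 (FDR = 0.548), not detectable beside its log2 standard error of 0.709. Without Itga8+ MSCs replicate 1 the log2 fold change of Itga8+ over CD51+CD140a+ MSCs was -1.85 (FDR = 0.0643), which would be called.

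Igf2r had 96.1, 123 and 69.1 CPM in Sca-1+ MSCs and 74.1, 71.9 and 75.8 CPM in CD51+CD140a+ MSCs. It had 19.8, 16.1 and 101 CPM in Itga8+ MSCs and 14.1, 88.5 and 10.1 CPM in Itga8-Alcam+ BLCs, so in each of these 1 library stood far above the other 2 and reached the range of the first populations. Those libraries, Itga8+ replicate 3 and Itga8-Alcam+ replicate 2, are also the ones with the highest cartilage marker sums. They further had the largest share of counts on genes with over 8 kb of exons, 27% and 32% against 8.47% to 24.5% in the remaining libraries, and Igf2r has 9308 bases. Of the other genes described here with over 8 kb, Igf1 (9904 bases) was also highest within its population in these libraries, whereas Igf1r (16791 bases) was lowest in the former, at 1.73 CPM, and not highest in the latter. What these measures contribute to the Igf2r values was not tested. No comparison of Igf2r was called with all libraries, where the largest fold change was 2.56 between Sca-1+ MSCs and Itga8-Alcam+ BLCs (FDR = 0.253). Without Itga8+ replicate 3 the log2 fold change of Itga8+ MSCs was -2.46 against Sca-1+ MSCs (FDR = 0.0449) and -2.04 beside CD51+CD140a+ MSCs (FDR = 0.0594). Without Itga8-Alcam+ replicate 2 that of Itga8-Alcam+ BLCs was -3.03 (FDR = 0.0157) and -2.61 (FDR = 0.0195) in the same order, so that all 4 would be called.

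Of the 6 binding proteins, Igfbp2 to Igfbp6 were each called in at least 4 of the 6 comparisons and Igfbp7 in none. Igfbp5, which is abundant in bone and binds to mineral and matrix, had 5932, 4090.1 and 6858 CPM in CD51+CD140a+ MSCs and 1730.4, 1932 and 1783 CPM in Sca-1+ MSCs. Itga8+ MSCs had 24.0, 14.9 and 77.5 CPM, and Itga8-Alcam+ BLCs 19.9, 57.9 and 13.4 CPM. The last 2 populations overlapped, and every one of their libraries was below all libraries of the first 2. Against Itga8+ MSCs, Igfbp5 was 145-fold higher in CD51+CD140a+ MSCs (log2 fold change of Itga8+ MSCs -7.18 ± 0.790 SE, FDR = 5.01e-05) and 46.8-fold higher in Sca-1+ MSCs (FDR = 0.000504). Without Itga8+ replicate 3, the highest of that population, these folds were 289 and 95.8. The 3.10-fold step between CD51+CD140a+ and Sca-1+ MSCs was just within the limit (FDR = 0.0977) and was lost in 8 of the 12 fits that left out a library. Within Itga8+ MSCs and Itga8-Alcam+ BLCs the high libraries for Igfbp5 were the same as for Igf2r.

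Igfbp4, mostly an inhibitor of IGF action that PAPP-A cleaves, had 4880.1, 3637 and 5558 CPM in CD51+CD140a+ MSCs and 507, 471 and 381 CPM in Sca-1+ MSCs. Itga8+ MSCs had 228, 94.4 and 188 CPM and Itga8-Alcam+ BLCs 109.8, 118 and 109.7 CPM. CD51+CD140a+ MSCs stood 27.5-fold above Itga8+ MSCs (FDR = 4.30e-06), 41.7-fold above Itga8-Alcam+ BLCs (FDR = 2.40e-06) and 10.4-fold above Sca-1+ MSCs (FDR = 3.73e-05). Sca-1+ MSCs were in turn 2.66-fold above Itga8+ MSCs (FDR = 0.0128). Itga8+ MSCs and Itga8-Alcam+ BLCs overlapped and their 1.51-fold difference was not called (FDR = 0.514).

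Igfbp3, the main carrier of IGFs in blood, had 479, 659.8 and 695 CPM in CD51+CD140a+ MSCs. It had 33.0, 32.7 and 38.1 CPM in Itga8+ MSCs and 28.4, 26.6 and 23.0 CPM in Sca-1+ MSCs. Itga8-Alcam+ BLCs had the least, 1.94, 12.3 and 6.06 CPM. CD51+CD140a+ MSCs were 17.7-fold above Itga8+ MSCs (FDR = 0.000146), and Itga8+ MSCs were 5.10-fold above Itga8-Alcam+ BLCs (log2 2.35 ± 0.495 SE, FDR = 0.0261). The latter call was lost in a fit of only these populations (FDR = 0.210) and without Itga8-Alcam+ replicate 3 (FDR = 0.107), and its fold was 8.76 without Itga8-Alcam+ replicate 2. The libraries of Itga8+ and Sca-1+ MSCs did not overlap, but the 1.33-fold step was not called (FDR = 0.564).

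Igfbp6, which prefers IGF2 to IGF1, was lowest in CD51+CD140a+ MSCs, where Igfbp3, Igfbp4 and Igfbp5 were highest. It had 1651, 1643 and 1723 CPM in Sca-1+ MSCs and 193, 778 and 299 CPM in Itga8+ MSCs. Itga8-Alcam+ BLCs had 60, 39.7 and 128 CPM, and CD51+CD140a+ MSCs had 0.464, 1.09 and 0.515 CPM, from 17, 38 and 16 counts and so above the floor. The 4 populations were separate from each other, and all 6 comparisons were called. Sca-1+ MSCs were 2403-fold above CD51+CD140a+ MSCs (log2 11.23 ± 0.827 SE, FDR = 3.41e-06) and 3.95-fold above Itga8+ MSCs (FDR = 0.0314). Itga8+ MSCs were 609-fold above CD51+CD140a+ MSCs (log2 9.25 ± 0.770 SE, FDR = 6.87e-06) and 5.59-fold above Itga8-Alcam+ BLCs (FDR = 0.0396). This last call was lost in a fit of only these populations (FDR = 0.197), with a replicate block (FDR = 0.101) and without Itga8-Alcam+ replicate 1 (FDR = 0.139) or 2 (FDR = 0.115). Without Itga8+ replicate 2 the fold of Itga8+ MSCs was 360.1 over CD51+CD140a+ MSCs and 3.31 over Itga8-Alcam+ BLCs, and Sca-1+ MSCs were 6.87-fold above Itga8+ MSCs. Replicate 2 of Itga8+ MSCs, which had the most Igfbp6, also had the highest myeloid and lymphoid marker sum and the highest erythroid marker sum, 1962 CPM against 148 to 636 CPM in the other 11 libraries. Both sums were higher in replicate 1 than in replicate 3, the reverse of Igfbp6. Of the 6 tendon markers, Tnmd (639, 5327 and 1536 CPM), Kera (134, 898 and 382 CPM) and Scx (131, 442 and 296 CPM), singled out after their values were seen, were highest in replicate 2 and lowest in replicate 1 as Igfbp6 was. The other 3, Mkx (42.9, 70.9 and 123 CPM), Thbs4 (2848, 2504 and 8751 CPM) and Fmod (9102, 5538 and 12462 CPM), were highest in replicate 3, as was the sum of all 6. The part of these markers in the Igfbp6 level was not tested.

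Igfbp2, which carries an integrin-binding motif, had the lowest mean TPM (transcripts for every 1000000, which corrects for exon length) of the 6 binding proteins in each population except CD51+CD140a+ MSCs. It had 7.27, 24.4 and 14.0 CPM in CD51+CD140a+ MSCs and 4.8, 12 and 2.02 CPM in Itga8+ MSCs. Itga8-Alcam+ BLCs had 0.398, 1.53 and 2.28 CPM, and Sca-1+ MSCs 0.221, 0.509 and 0.234 CPM, from 4, 10 and 5 counts. Itga8+ MSCs were 19.3-fold above Sca-1+ MSCs (log2 4.27 ± 0.846 SE, FDR = 0.00590), or 10.4-fold without Itga8+ replicate 2. The differences of Itga8+ MSCs from CD51+CD140a+ MSCs, 2.41-fold lower (FDR = 0.188), and from Itga8-Alcam+ BLCs, 4.50-fold higher (FDR = 0.211), were not called. The former was called without Itga8+ replicate 2 (log2 -2.12, FDR = 0.0503), and the latter without Itga8+ replicate 3 (FDR = 0.0949), with DESeq2 (adjusted p = 0.0606) and with library totals (FDR = 0.0997). The latter was not called in the other alternatives, among them the fit without Itga8+ replicate 2, the highest of its population at 12 CPM. The 4.28-fold excess of Itga8-Alcam+ BLCs over Sca-1+ MSCs was called (FDR = 0.0886) although their libraries overlapped, and it was lost in 7 of the 12 fits that left out a library, among them each fit without a Sca-1+ library.

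Igfbp7, a secreted relative with low affinity for IGFs, was high throughout and differed least among the binding proteins. It had 1019.6, 2089.6 and 1040.2 CPM in Itga8+ MSCs and 1163, 1462 and 1446 CPM in Sca-1+ MSCs. It had 886, 948 and 1182 CPM in CD51+CD140a+ MSCs and 707, 505 and 1081 CPM in Itga8-Alcam+ BLCs. The largest fold change was 1.81, between Itga8+ MSCs and Itga8-Alcam+ BLCs (FDR = 0.335), and no comparison was called. Itga8-Alcam+ BLCs did not overlap with Sca-1+ MSCs, and this difference (log2 -0.83, FDR = 0.116) was called without Itga8-Alcam+ replicate 3 (log2 -1.16, FDR = 0.0519) and with library totals (log2 -1.04, FDR = 0.0534). By mean TPM Igfbp7 ranked 24th of 49326 genes in Itga8+ MSCs, 25th in Sca-1+ MSCs, 30th in CD51+CD140a+ MSCs and 64th in Itga8-Alcam+ BLCs.

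**Figure D2:**
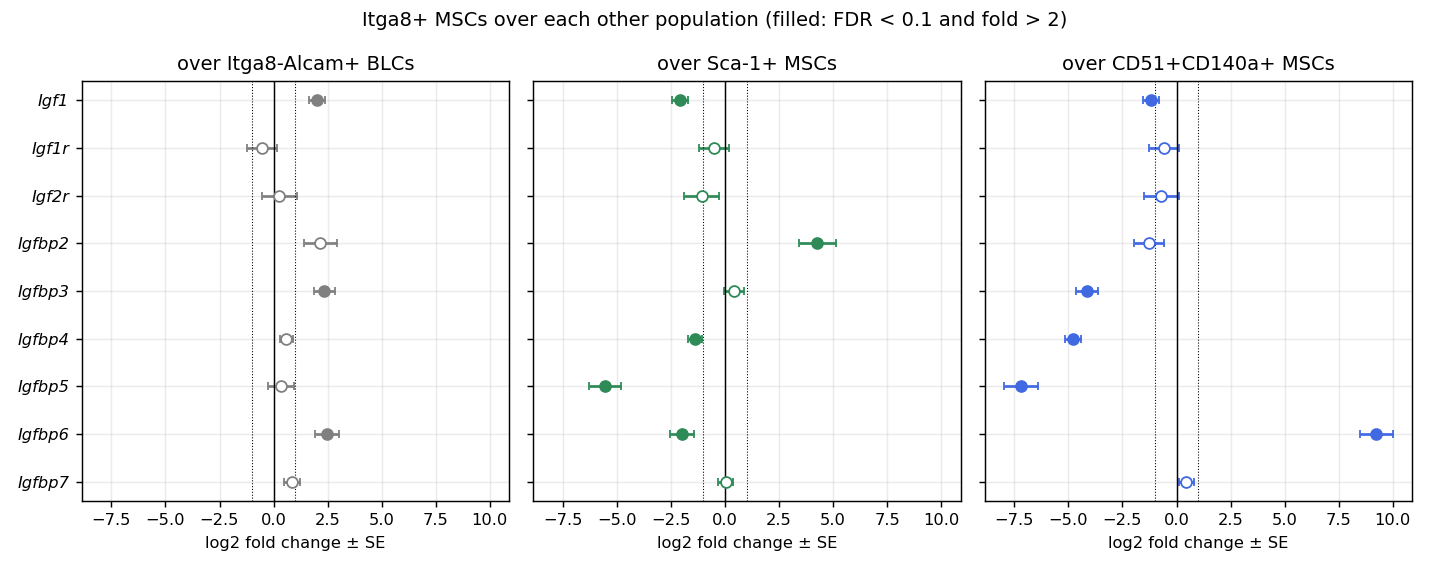
Log2 fold change of Itga8+ MSCs over each other population, with the standard error as a bar, for the 9 genes. Filled points are called, and dotted lines mark a fold change of 2. Igfbp6 is above zero beside Itga8-Alcam+ BLCs and CD51+CD140a+ MSCs and below zero beside Sca-1+ MSCs.

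Counted by comparison, 3 of the 9 genes were called between Itga8+ MSCs and Itga8-Alcam+ BLCs, where 3.82% of all tested genes were called. All 3, Igf1, Igfbp3 and Igfbp6, were higher in Itga8+ MSCs, a direction in which 1.66% of genes were called, none was lower, where 2.16% were, and only these 3 had libraries that did not overlap, as had 14.2% of genes. In a fit of only these 2 populations none of the 3 was called, and 276 genes were called in place of 712. With library totals in place of TMM scaling, 61.3% instead of 43.5% of the called genes were higher in Itga8+ MSCs, while of the genes called for Itga8-Alcam+ BLCs 42.6% instead of 54.9% were higher than in Sca-1+ MSCs and 41.8% instead of 57.9% higher than in CD51+CD140a+ MSCs.

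Between Itga8+ and Sca-1+ MSCs 5 of the 9 were called, beside 21.7% of all genes. Igf1, Igfbp4, Igfbp5 and Igfbp6 were lower in Itga8+ MSCs, where 8.89% of genes were called lower, and Igfbp2 was higher, where 12.9% were. The libraries of 6 genes did not overlap, beside 37.6% of all genes. Between Itga8+ and CD51+CD140a+ MSCs 5 were called, beside 35.6% of all genes. Igf1, Igfbp3, Igfbp4 and Igfbp5 were lower in Itga8+ MSCs, beside 14.3% of genes, and Igfbp6 was higher, beside 21.2%. Libraries did not overlap for 5, beside 44.4% of genes. These 3 comparisons share the Itga8+ libraries, so their calls are not independent of each other.

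Among the other populations, 6 of the 9 were called between Itga8-Alcam+ BLCs and Sca-1+ MSCs (26.4% of all genes), of which Igfbp2 was higher (14.5%) and the others lower (11.9%) in Itga8-Alcam+ BLCs, and 6 did not overlap (45.7%). Between Itga8-Alcam+ BLCs and CD51+CD140a+ MSCs 6 were called (35.3%), of which Igfbp6 was higher (20.4%) and the others lower (14.9%) in Itga8-Alcam+ BLCs, and 6 did not overlap (49.8%). Between Sca-1+ and CD51+CD140a+ MSCs 5 were called (20.5%), of which Igfbp6 was higher (11.2%) and the others lower (9.3%) in Sca-1+ MSCs, and 6 did not overlap (45.9%). The median log2 fold change of the 9 genes was -1.17 for Itga8+ MSCs over CD51+CD140a+ MSCs, -1.08 over Sca-1+ MSCs and 0.86 over Itga8-Alcam+ BLCs, beside 0.18, 0.16 and 0.08 over all tested genes. A two-sided exact permutation test of 3 libraries against 3 cannot give a p below 0.1, so it cannot add a call for any gene.

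Per length, the binding protein pool was led by Igfbp7 in Itga8+ MSCs and Itga8-Alcam+ BLCs, by Igfbp6 in Sca-1+ MSCs and by Igfbp4 in CD51+CD140a+ MSCs. The summed TPM of the 6 binding proteins was 12199.5 ± 2188 in CD51+CD140a+ MSCs and 11297 ± 402 in Sca-1+ MSCs (SD, n = 3 each). It was 4929.8 ± 1049.6 in Itga8+ MSCs, more than the 2070.5 ± 392 of Itga8-Alcam+ BLCs, whose libraries were all lower. Igfbp7 made up 73.2% ± 3.99 of this sum in Itga8+ MSCs, with Igfbp6 at 22.3% ± 6.16, and 86.0% ± 1.56 in Itga8-Alcam+ BLCs, with Igfbp6 at 8.78% ± 2.00. In Sca-1+ MSCs Igfbp6 led with 49.5% ± 2.32, followed by Igfbp7 with 36.8% ± 2.77 and Igfbp5 with 9.95% ± 0.430. In CD51+CD140a+ MSCs the pool was split among Igfbp4 with 34.9% ± 2.15, Igfbp5 with 30.6% ± 3.14 and Igfbp7 with 27.6% ± 3.35, while Igfbp3 held 6.55% ± 1.67 and Igfbp6 0.0219% ± 0.0148. By mean TPM, Igfbp6 ranked 15th of all genes in Sca-1+ MSCs and 12718th in CD51+CD140a+ MSCs. Igfbp4 ranked 18th and Igfbp5 25th in CD51+CD140a+ MSCs. These shares rest on the union of exons of each gene and have no test.

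**Figure D3:**
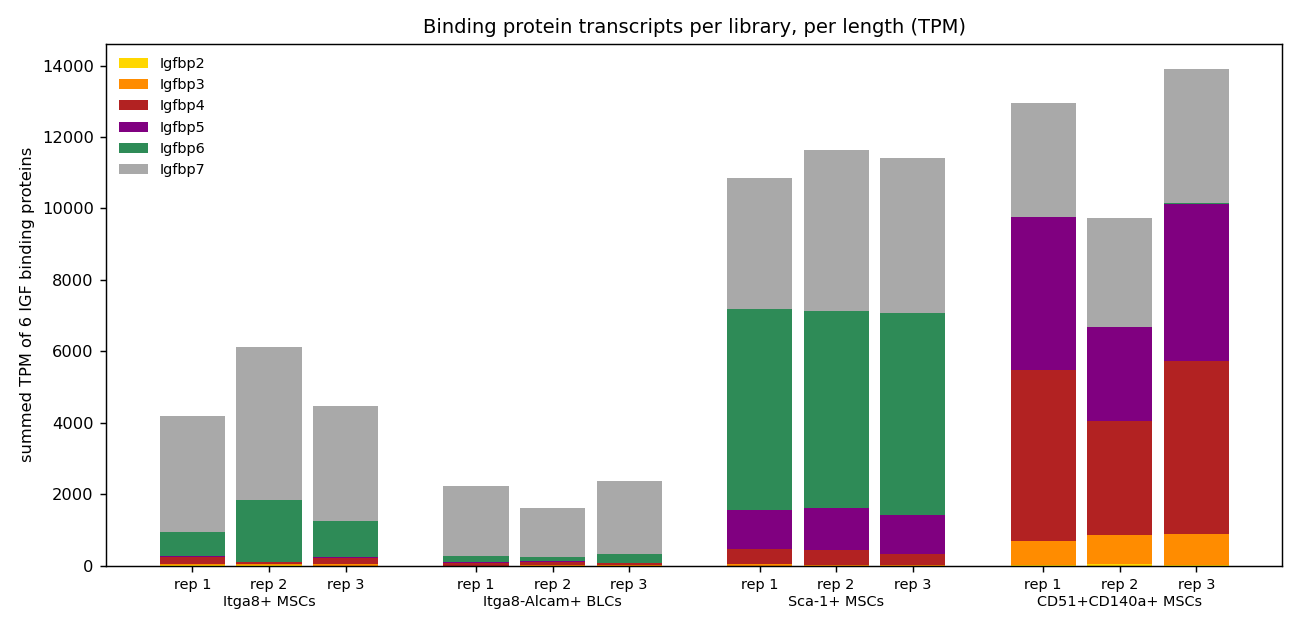
Summed TPM of the 6 binding protein genes in each of the 12 libraries, with 1 stacked bar per library and 1 colour per gene. Sca-1+ and CD51+CD140a+ MSCs reach sums of 9734 to 13909 TPM, built from Igfbp6 and Igfbp7 in the former and from Igfbp4, Igfbp5 and Igfbp7 in the latter.

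Binding protein transcripts outnumbered Igf1 transcripts in every library. Igf1 had 213 ± 34.4 TPM in Sca-1+ MSCs, 124 ± 13.9 in CD51+CD140a+ MSCs, while Itga8+ MSCs had 45.3 ± 19.1 TPM of it and Itga8-Alcam+ BLCs 10.4 ± 5.91 TPM. The binding protein sum per unit of Igf1 was 129, 168 and 66.6 in the 3 libraries of Itga8+ MSCs and 232, 97.6 and 481 in those of Itga8-Alcam+ BLCs. It was 54.1, 62.3 and 45.3 in Sca-1+ MSCs and 93.0, 86.9 and 115 in CD51+CD140a+ MSCs. With all 6 binding proteins counted, Sca-1+ MSCs had the 3 lowest ratios, while the ranges of the other populations overlapped. Igfbp7, which binds IGFs weakly, counts fully in this sum. Its mean share was larger for Itga8-Alcam+ BLCs (86.0%) and Itga8+ MSCs (73.2%) than for Sca-1+ MSCs (36.8%) or CD51+CD140a+ MSCs (27.6%). Whether the order holds without Igfbp7 was not tested, so these ratios do not rank the populations by binding of IGFs. For the receptors, Igf2r had 38.5 ± 11.2 TPM in Sca-1+ MSCs, 32 ± 2.37 in CD51+CD140a+ MSCs, while Itga8+ MSCs had 17.6 ± 19.8 TPM and Itga8-Alcam+ BLCs 12.9 ± 15.9 TPM. Igf1r had lower means in each, from 1.35 ± 1.56 TPM in Itga8+ MSCs to 2.28 ± 0.313 TPM in CD51+CD140a+ MSCs.

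**Figure D4:**
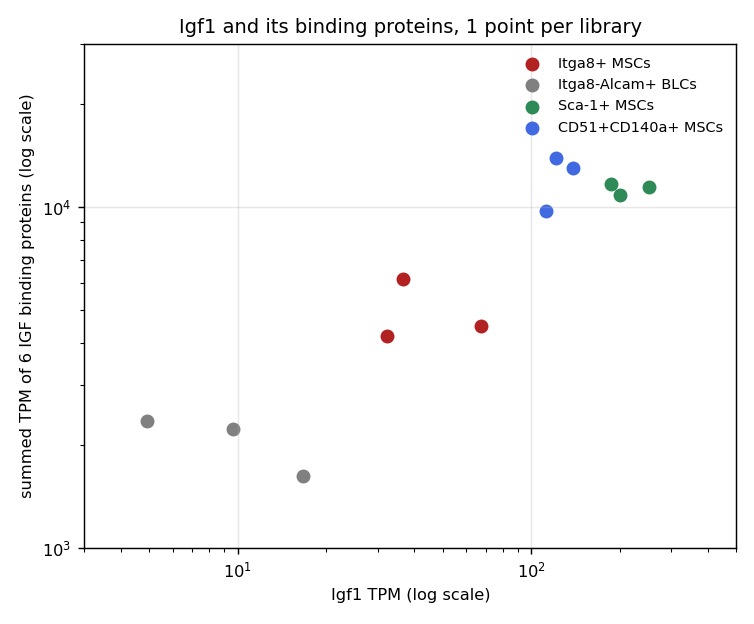
Igf1 TPM on the horizontal axis and the summed TPM of the 6 binding proteins on the vertical axis, both on log scales, with 1 point per library coloured by population. Itga8-Alcam+ BLCs lie lowest on both axes, Sca-1+ MSCs farthest to the right, and Itga8+ MSCs between.

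The genes with the most similar profile over the 12 libraries were listed for each of these genes with at least 10 CPM in a population, by the root mean square difference of centred log2 CPM among 10555 genes. For Igf1 they were Abi3bp (0.249), Fstl1 (0.371) and Ifit2 (0.417). For Igfbp4 they were Gas6 (0.334), Negr1 (0.502) and Nrp1 (0.509), and for Igfbp5 Lamb1 (0.654), Rspo2 (0.682) and Slfn5 (0.837). Igfbp3 was nearest to Fbln5 (0.547), Ccbe1 (0.577) and Il34 (0.637), and Igfbp2 to Myl9 (0.606), Mdk (0.822) and Eva1a (0.895). The nearest genes to Igfbp6, Ccn3 (1.17), Kera (1.23) and Ahnak2 (1.33), were farther away. Igf2r was nearest to Mcc (0.218), Uhmk1 (0.253) and Atrn (0.265) and Igfbp7 to Leprot (0.167), Stambpl1 (0.185) and Snapin (0.210). Igf1r, under 10 CPM in every population, was left out. Among the 9 genes themselves, the closest pair was Igfbp3 and Igfbp4 (1.06) and the most distant was Igfbp5 and Igfbp6 (6.45), while the chromosomal neighbours Igfbp2 and Igfbp5 differed by 3.88.

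Of 52 further genes of the axis, 45 were tested, and 11.1% of these were called between Itga8+ MSCs and Itga8-Alcam+ BLCs (3.82% of all genes), 37.8% between Itga8+ and Sca-1+ MSCs (21.7% of all genes) and 68.9% between Itga8+ and CD51+CD140a+ MSCs (35.6% of all genes). Of the 5 other ligands and carriers 2 were tested. Igf2, the other ligand, had 14.3, 14.5 and 22.6 CPM in CD51+CD140a+ MSCs and 10.5, 13.2 and 10.1 CPM in Itga8+ MSCs. It had 4.98, 4.73 and 6.33 CPM in Sca-1+ MSCs and 1.59, 4.26 and 4.68 CPM in Itga8-Alcam+ BLCs. Its level in Itga8+ MSCs was 3.21-fold that in Itga8-Alcam+ BLCs (FDR = 0.0534) and 2.11-fold that in Sca-1+ MSCs (FDR = 0.0898), and was not called against CD51+CD140a+ MSCs (FDR = 0.262). The first call was lost without Itga8+ replicate 1 (FDR = 0.104) or Itga8-Alcam+ replicate 1 (FDR = 0.116), and the second in 9 of the 12 fits that left out a library. Igfals, which encodes the acid-labile subunit of the IGF complex in blood and is named here after its values were seen, was lower in Itga8+ than in CD51+CD140a+ MSCs (log2 -1.87, FDR = 0.0313), and both insulin genes were listed at 0 in every library.

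Of the 2 insulin family receptors, Insr, the insulin receptor, had 3.18 ± 0.656 CPM in Itga8+ MSCs and 15.3 ± 9.84 CPM in Itga8-Alcam+ BLCs, 4.82-fold more (FDR = 0.0364, but 0.136 without Itga8+ replicate 1 and 0.142, with a fold of 3.25, without Itga8-Alcam+ replicate 3), and 3.47 ± 0.863 CPM in Sca-1+ MSCs and 9.71 ± 2.81 CPM in CD51+CD140a+ MSCs. None of the 6 IGFBP proteases and inhibitors was called between Itga8+ MSCs and Itga8-Alcam+ BLCs by edgeR, beside 3.82% of all genes, where Htra1, singled out after its values were seen, had an FDR of 0.0534 with a fold change of 1.94, and Htra1 and Adam12 had an unadjusted p under 0.05. Against Sca-1+ MSCs 2 of the 6 were called, both higher in Itga8+ MSCs (beside 21.7% of all genes called), and against CD51+CD140a+ MSCs 5, with 3 higher and 2 lower (beside 35.6%). Pappa, which encodes the protease PAPP-A that cleaves IGFBP4, had 297, 328 and 335 CPM in CD51+CD140a+ MSCs and 1.77 to 15.6 CPM in the 9 other libraries, and was 66.2-fold lower in Itga8+ than in CD51+CD140a+ MSCs (FDR = 0.000131). Adam12, another protease, was also lower there (log2 -3.37, FDR = 0.00629). Without Itga8+ replicate 3, the highest of its population for both, the fold was 164 for Pappa and the log2 fold change -4.33 for Adam12. For Pappa2, a relative of Pappa, Itga8+ MSCs were above CD51+CD140a+ MSCs (log2 4.51, FDR = 0.00724) and Sca-1+ MSCs (log2 2.60, FDR = 0.0844). Without Itga8+ replicate 3 these were 3.71 (FDR = 0.0158) and 1.77 (FDR = 0.187), and the latter call was lost in 6 of the 12 fits that left out a library. Stc2, whose product inhibits PAPP-A, had 13.8 ± 4.92 CPM in Itga8+ MSCs and 7.98 ± 1.42 CPM in Itga8-Alcam+ BLCs, against 0.454 ± 0.352 CPM in Sca-1+ MSCs and 0, 0 and 0.322 CPM in CD51+CD140a+ MSCs. CD51+CD140a+ MSCs therefore had the most Igfbp4 and Pappa of the 4 populations by mean CPM. Their Stc2 came from 0, 0 and 10 counts, and that of Sca-1+ MSCs from 11, 1 and 15. These 2 populations overlapped for Stc2 and their difference was not called, so Stc2 does not rank them.

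Of the 5 genes of growth hormone input, Ghr, the growth hormone receptor, had 40.1, 45.2 and 47.8 CPM in Itga8+ MSCs and 39.3, 62.1 and 45.5 CPM in Itga8-Alcam+ BLCs. It had 119, 127 and 129 CPM in Sca-1+ MSCs and 529, 703 and 571 CPM in CD51+CD140a+ MSCs. It was 13.5-fold lower in Itga8+ than in CD51+CD140a+ MSCs (FDR = 2.92e-06) and 2.81-fold lower than in Sca-1+ MSCs (FDR = 0.00228). Stat5a and Stat5b, which act below this receptor, were lower in Itga8+ than in CD51+CD140a+ MSCs as well (log2 -1.68, FDR = 0.0415 and log2 -1.95, FDR = 0.0256), and Socs2, an inhibitor induced by growth hormone, was higher (log2 1.21, FDR = 0.0594). The Stat5b value was -2.62 without Itga8+ replicate 3. The Stat5a call was lost without CD51+CD140a+ replicate 2 (FDR = 0.109), and that of Socs2 without CD51+CD140a+ replicate 2 (FDR = 0.174) or 3 (FDR = 0.168) or Itga8+ replicate 2 (FDR = 0.223). In Sca-1+ MSCs, where Igf1 was highest, Ghr was 4.81-fold below CD51+CD140a+ MSCs (FDR = 7.15e-05).

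Of 19 genes of intracellular signalling 17 were tested, and the count of calls was 1 beside Itga8-Alcam+ BLCs and 4 beside Sca-1+ MSCs, where 3.82% and 21.7% of all genes were called. Beside CD51+CD140a+ MSCs it was 10, with 2 higher and 8 lower in Itga8+ MSCs, where 21.2% of all genes were called higher and 14.3% lower. The 8 included the receptor substrates Irs1 (log2 -2.76, FDR = 0.00399) and Irs2 (log2 -2.49, FDR = 0.00995) and the PI3-kinase subunit Pik3r1 (log2 -2.42, FDR = 0.000151). Irs1 was at -3.43 without Itga8+ replicate 1, and Irs2 at -3.23 without Itga8+ replicate 3. Grb14, an adaptor that inhibits the insulin receptor, had 5.51 ± 0.483 CPM in Itga8+ MSCs and was 4.21-fold higher in Itga8-Alcam+ BLCs (FDR = 0.00321) and 10.3-fold higher in CD51+CD140a+ MSCs (FDR = 2.00e-05). Of the 3 Igf2 mRNA-binding proteins 2 were tested, and Igf2bp2 was lower in Itga8+ than in CD51+CD140a+ MSCs (log2 -2.03, FDR = 0.0131).

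Of 12 relatives that share the IGFBP domain 11 were tested, and for Itga8+ MSCs 9 were called against CD51+CD140a+ MSCs (6 higher and 3 lower, beside 35.6% of all genes). Against Sca-1+ MSCs 8 were called (5 higher and 3 lower, beside 21.7%), and against Itga8-Alcam+ BLCs 2, both lower (beside 3.82%). Ccn4, a matricellular protein known from the osteoblast lineage, was the only one of the 52 genes called in all 3 comparisons. The share of all tested genes called in all 3 was not counted and cannot exceed the 3.82% called against Itga8-Alcam+ BLCs. It had 83.0, 149.6 and 143 CPM in Itga8+ MSCs, 377, 481 and 1020.1 CPM in Itga8-Alcam+ BLCs and 12.3 to 24.7 CPM in the other 6 libraries. Itga8+ MSCs were 5.0-fold below Itga8-Alcam+ BLCs (FDR = 0.0117), 7.27-fold above CD51+CD140a+ MSCs (FDR = 0.000495) and 6.21-fold above Sca-1+ MSCs (FDR = 0.00198). For Ccn6 Itga8+ MSCs were above CD51+CD140a+ MSCs (log2 5.95, FDR = 0.000699) and Sca-1+ MSCs (log2 5.28, FDR = 0.00288). With a library left out the former ranged between 5.36, without CD51+CD140a+ replicate 2, and 6.70, without replicate 3, and the latter reached 5.90 without Sca-1+ replicate 3. Ccn3, the gene nearest to Igfbp6, had 971 ± 89.7 CPM in Sca-1+ MSCs and 66.3 ± 10.9 CPM in Itga8+ MSCs, and 0, 0.0287 and 1.42 CPM in CD51+CD140a+ MSCs. Htra4, a secreted serine protease with an IGFBP domain, was lower in Itga8+ than in Sca-1+ MSCs (log2 -4.45, FDR = 0.00581) and higher than in CD51+CD140a+ MSCs (log2 5.55, FDR = 0.00126). Without Itga8+ replicate 1 these were -5.52 and 4.47, and the latter was 6.85 without CD51+CD140a+ replicate 1. Esm1, a secreted proteoglycan, had 1263, 1145 and 1446 CPM in CD51+CD140a+ MSCs and 0.797 to 6.44 CPM elsewhere, 296-fold lower in Itga8+ MSCs (FDR = 1.21e-06).

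**Figure D5:**
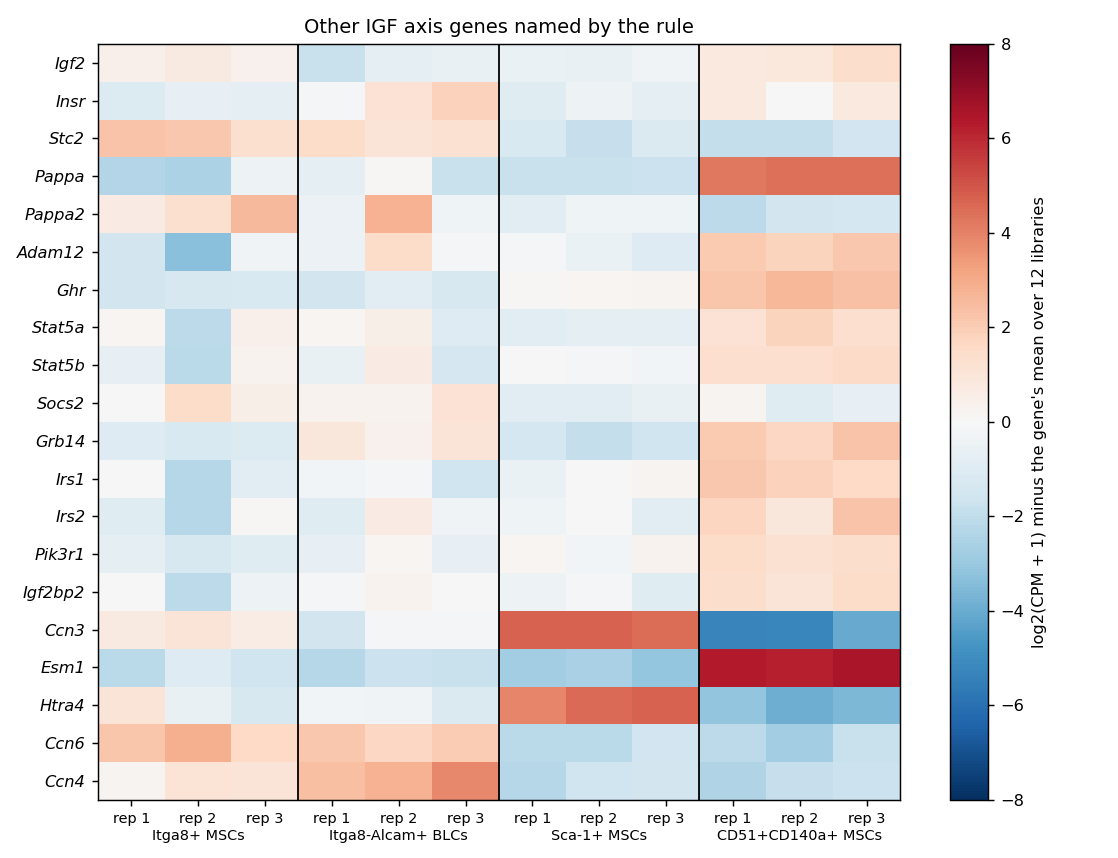
Heat map of the 20 named further genes of the axis in the 12 libraries, coloured by log2(CPM + 1) minus the mean of the gene over the 12 libraries. Pappa, Ghr, Esm1, Irs1 and Irs2 are highest in CD51+CD140a+ MSCs, Ccn3 and Htra4 in Sca-1+ MSCs, and Ccn4 in Itga8-Alcam+ BLCs.

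Marker genes of the sorted populations themselves and of other cell types moved with several of these results, and their part in them was not tested. The osteoblast list matches the label of Itga8-Alcam+ BLCs, the Sca-1 fibroblast list includes the gate gene Ly6a, and LepR+ stromal markers are known from CD51+CD140a+ marrow cells. The summed level of 10 LepR+ stromal markers was 54363 to 72075 CPM in CD51+CD140a+ MSCs, where Igfbp3, Igfbp4 and Igfbp5 were highest, and 566 to 915 CPM in the 9 other libraries, and no population had one of the 10 at the floor in all its libraries. Another Sca-1 fibroblast markers summed to 2524 to 3278 CPM in Sca-1+ MSCs, where Igf1 and Igfbp6 were highest, and to 26.6 to 125 CPM elsewhere, with Clec3b at the floor in CD51+CD140a+ MSCs. The 6 tendon markers summed to 12896 to 23550.5 CPM in Itga8+ MSCs, 6266 to 9352 in Sca-1+ MSCs, 3788 to 6396 in Itga8-Alcam+ BLCs and 83.4 to 113 in CD51+CD140a+ MSCs, where Scx and Kera were at the floor and Igfbp6 was lowest. The 10 osteoblast markers summed to 44789 to 117116 CPM in Itga8-Alcam+ BLCs and 2932 to 22088 CPM elsewhere, and the population with the most had the least Igf1 and Igfbp3. The 6 cartilage markers summed to 9947 to 116138 CPM in the 6 libraries of Itga8+ MSCs and Itga8-Alcam+ BLCs and to 525 to 1597 CPM in the other 6, and the 8 other myeloid and lymphoid markers to 2296 to 11829 CPM and 869.8 to 1713 CPM. Igf1, Igfbp4 and Igfbp5 were lower in each of the former libraries than in each of the latter. Macrophage markers, 7 genes, summed to 13.9 to 83.5 CPM, endothelial markers, 8 genes, to 12.7 to 114 CPM and skeletal muscle markers, 6 genes, to 0.703 to 37.8 CPM over all libraries.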

How the data were processed

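RNA from 12 sorted samples of 2000 cells was amplified with SMART-Seq v4, made into Nextera XT libraries and sequenced on a NextSeq instrument. The authors deposited unnormalized read counts for each Ensembl gene, with 1 column per library. The submitters' processing notes name FastQC 0.11.7, Trimmomatic 0.38, HISAT2 2.1.0, SAMtools 1.9, featureCounts 1.6.3 and mm10, whereas the methods of the study name TopHat and Bowtie2. The annotation release and the settings for strand and for reads with several matches are not given in the sources used here, and these settings can move counts of overlapping genes.

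Samples were grouped by their labels. Counts were fitted with edgeR 4.0.16 (R 4.3.3) in 1 quasi-likelihood model of all 12 libraries with TMM scaling, over genes of at least 0.5 CPM in at least 1 library. Thresholds, an FDR below 0.1 and a fold change over 2, follow the study, and each of the 6 comparisons was adjusted on its own. TPM was computed from the union of exons in GENCODE M21 on GRCm38, which lists 49326 of the genes and lacks 259, with no more than 0.0163% of any library's counts. Tables and figures used matplotlib 3.10.9, scipy 1.17.1, pandas 2.3.3 and numpy 2.4.6 under Python 3.11.15. Scripts were tested on simulated data with known changes.

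The 9 genes and the lists were chosen with earlier results of these data known. The text names the 9 genes, of each further list of the axis the up to 4 genes of largest fold change among those called with at least 10 CPM in the higher population, any called in all 3 comparisons with Itga8+ MSCs, and the 3 nearest genes of each of the 9 with at least 10 CPM in a population. Igfals, Htra1 and the genes at 0 fall outside this rule and were chosen after their values were seen. Genes of the marker lists are named where they touch a result. The markers of the sort exclusion are not reported here.

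Alternatives were DESeq2 1.42.0, limma-trend (limma 3.58.1), RLE size factors, library totals, other filters (none beyond 1 count, or at least 10 counts in 3 libraries), separate fits of each pair of populations, a replicate block, counts thinned to 17580677, an FDR under 0.05, longest transcripts for TPM, and each library left out in turn. Within each population, libraries differed by a chi-square per gene of 21.0 to 645, so none was a copy of another.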

Additional observations from a re-analysis of the deposited data

How the results depend on the processing

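The calls between Itga8+ MSCs and Itga8-Alcam+ BLCs depended most on the fit. The 712 genes called became 464 at an FDR under 0.05, 1203 with DESeq2, 276 with only these populations fitted and 433 with a replicate block, and 433 to 886 with a library left out, lowest without Itga8-Alcam+ replicate 3. The 3 of the 9 genes called there became 0 with only these populations fitted and 2 to 4 with a library left out, where Igfbp3 was lost without Itga8-Alcam+ replicate 3 (FDR 0.107) and Igfbp6 without replicate 1 (FDR 0.139) or 2 (FDR 0.115). Between Itga8+ and Sca-1+ MSCs the 4055 genes called ranged from 2386 to 5878 with a library left out, with 2642, 2386 and 2492 without Sca-1+ replicates 1, 2 and 3. The share of Igfbp4 in CD51+CD140a+ MSCs was 37.4% with the longest transcript in place of 34.9%. The causes of these shifts were not tested. The smaller fits differ both in the number of libraries and in which libraries they hold.

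Reversals were confined, among the alternatives run, to differences that were not called. For Igfbp7 in Itga8+ over Sca-1+ MSCs the log2 fold change of 0.03 became -0.0497 with limma-trend and -0.0148 with only these populations fitted, and ranged from -0.41 to 0.21 with a library left out. For Igf1r in Itga8-Alcam+ BLCs over Sca-1+ MSCs the value of 0.03 became -0.348 with limma-trend, -0.0880 with library totals and -0.376 with the replicate block, and ranged from -0.95 to 0.46. With a library left out, Igf1r ranged from -1.80 to 0.42 in Itga8+ MSCs over Itga8-Alcam+ BLCs, from -0.99 to 0.38 in Itga8-Alcam+ BLCs over CD51+CD140a+ MSCs and from -0.16 to 0.0205 in Sca-1+ over CD51+CD140a+ MSCs. In Itga8+ MSCs over Itga8-Alcam+ BLCs Igf2r ranged from -1.06 to 1.92 and Igfbp5 from -0.64 to 1.24.

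Whether the replicate numbers pair the samples is not settled. Deviations of same-numbered libraries from their population means correlated at -0.63 to 0.24 over the comparisons. These deviations also hold differences between libraries such as those of the cartilage marker sums, so they can neither show nor exclude a pairing. With the replicate block Igfbp6 between Itga8+ MSCs and Itga8-Alcam+ BLCs (log2 2.32, FDR 0.101) and Igfbp5 between Sca-1+ and CD51+CD140a+ MSCs (log2 -1.63, FDR 0.151) lost their calls, and no other call on the 9 genes changed. Library totals moved the median log2 fold change over tested genes from 0.08 to 0.34 in Itga8+ MSCs over Itga8-Alcam+ BLCs and from 0.09 to -0.24 in Itga8-Alcam+ BLCs over CD51+CD140a+ MSCs. The alternatives run left every call of Igfbp3, Igfbp4 and Igfbp5 against CD51+CD140a+ MSCs in place, except that of Igfbp5 beside Sca-1+ MSCs. Of the fits of the 9 genes that left out no library, 290 kept a call, 10 lost one and 4 gained one. Levels near 3 counts, as of Igfbp2 in Sca-1+ MSCs, limit any fold there.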
